A study of Mus musculus with 15 samples.

Results

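Claudins and the proteins that anchor them were followed in ear RNA of wild type mice and of mice that lack *Socs3* in keratinocytes. The 10 genes, 8 claudins (*Cldn1*, *Cldn3*, *Cldn4*, *Cldn5*, *Cldn7*, *Cldn8*, *Cldn12* and *Cldn23*), occludin (*Ocln*) and ZO-1 (*Tjp1*), were taken by an exact match of the gene symbol among the 21110 genes in the files, and all 10 were found. *Socs3* encodes a feedback inhibitor of cytokine receptor signalling, and the study compared C57BL/6 wild type mice with conditional knockout mice (*Socs3* cKO) whose deletion is driven by keratin 5 and so lies in keratinocytes. The 15 libraries held 1 mouse each. At the age of 2 weeks there were 4 mice of each genotype, and at 10 weeks there were 3 wild type and 4 *Socs3* cKO. Total RNA came from ear specimens, although the labels also name keratinocytes as the source, and each library gave 1 FPKM value per gene (fragments per kilobase of transcript, scaled to the mapped reads of the library).

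Tight junctions seal the space between neighbouring epithelial or endothelial cells. Claudins span the membrane and pair with claudins of the next cell, so the claudins a cell makes set which ions and molecules can pass. Occludin is a further membrane protein of the same strands, and ZO-1 is a cytoplasmic scaffold that binds claudin tails and links them to actin. In the epidermis the strands lie in the granular layer, where claudin-1 and claudin-4 are known as barrier-forming members and loss of claudin-1 leads to lethal water loss in newborn mice. Claudin-5 is best known from blood vessel endothelium.

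All claudins share a signature in their first extracellular loop, and its coding stretch is shown because it is the sequence that makes these 8 genes 1 family. The stretches were read from GENCODE vM1 transcripts of mm9, the build of the files, 5′ to 3′ on the coding strand, and capitals mark the codons of the tryptophan, of the glycine, leucine and tryptophan, and of both cysteines of the signature.

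Cldn1: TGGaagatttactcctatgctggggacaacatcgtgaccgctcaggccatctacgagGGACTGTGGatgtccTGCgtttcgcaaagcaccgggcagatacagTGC
Cldn3: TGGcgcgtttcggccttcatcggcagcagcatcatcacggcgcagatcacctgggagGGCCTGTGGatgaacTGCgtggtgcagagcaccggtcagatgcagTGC
Cldn4: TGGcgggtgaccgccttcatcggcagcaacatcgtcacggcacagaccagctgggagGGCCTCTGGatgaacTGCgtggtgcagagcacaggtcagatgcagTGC
Cldn5: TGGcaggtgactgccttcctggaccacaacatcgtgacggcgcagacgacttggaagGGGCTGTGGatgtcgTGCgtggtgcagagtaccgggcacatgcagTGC
Cldn7: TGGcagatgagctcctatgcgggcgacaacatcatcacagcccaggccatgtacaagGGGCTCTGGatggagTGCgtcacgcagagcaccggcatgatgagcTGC
Cldn8: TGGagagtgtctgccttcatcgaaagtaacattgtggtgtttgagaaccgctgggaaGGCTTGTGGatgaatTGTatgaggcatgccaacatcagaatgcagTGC
Cldn12: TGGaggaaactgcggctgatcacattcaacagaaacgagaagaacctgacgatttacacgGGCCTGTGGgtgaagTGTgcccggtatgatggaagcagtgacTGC
Cldn23: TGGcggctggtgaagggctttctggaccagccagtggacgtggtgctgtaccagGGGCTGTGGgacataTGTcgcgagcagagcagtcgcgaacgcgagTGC

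*Cldn3* and *Cldn4* were closest among stretches of equal length, with 94 of 105 bases identical (89.5%) and a longest identical run of 26 bases, which is shorter than the 50-base reads. Both are genes of 1 exon on chromosome 5 of mm9, *Cldn3* at chr5:135462084-135463342 on the plus strand and *Cldn4* at chr5:135420996-135422804 on the minus strand. *Cldn5* (chr16:18776940-18778353), *Cldn8* (chr16:88561073-88563428) and *Cldn23* (chr8:36887766-36889613) also have 1 exon, while *Cldn1* (chr16:26356728-26371927), *Cldn7* (chr11:69778281-69781387) and *Cldn12* (chr5:5505109-5514958) have 4. *Ocln* (chr13:101266462-101322673) has 9 exons and *Tjp1* (chr7:72441051-72516125) has 28.

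Some facts of the libraries touch every value. The number of reads behind each value is unknown, since only FPKM was used. Each of the 4 groups has its own run of library numbers, so library batch and condition cannot be told apart. The libraries also differed in how FPKM followed the base composition of transcripts: with genes in 5 equal classes by GC content, the highest class minus the lowest lay at 0.71 to 0.79 (log2, relative to the mean of all libraries) in wild type mice of 2 weeks and at 0.12 to 0.59 in those of 10 weeks. In *Socs3* cKO it lay at -0.41 to -0.14 at the later age and at -0.31 to -0.19 in 3 mice of the earlier one. *Socs3* cKO replicate 1 at 2 weeks lay at -2.32, and its median absolute log2 difference to its group was the largest of all libraries, at 0.69. By transcript length the longest class minus the shortest lay at 0.41 to 0.66 in the wild type at 2 weeks. It lay at -1.03 to -0.24 in the wild type at 10 weeks. In *Socs3* cKO it lay at -0.94 to 0.51 at 2 weeks and at -0.39 to 0.42 at 10 weeks. *Tjp1* has the longest transcript of the members, with 7049 bases. From 1414 to 3176 genes were listed at 0 in wild type mice at 10 weeks, against 4044 to 4423 in the other groups. *Socs3* itself was at 9.71 to 10.3 FPKM in wild type mice of 2 weeks, with 1.25 to 12.6 in *Socs3* cKO. The level at 10 weeks was 2.02 to 4.81 FPKM in the wild type, with 29.8 to 47.7 in the libraries labelled *Socs3* cKO, which goes against their label. The level sums over all ear cells and over the whole gene, deleted part included, so the groups are named by their labels throughout. The ear samples held RNA of more than keratinocytes. In wild type mice of 2 weeks, 10 endothelial markers summed to 134 to 152 FPKM and 7 skeletal muscle markers to 691 to 1049. There 6 Schwann cell markers summed to 325 to 356 FPKM, 6 adipocyte markers to 32.9 to 35.5 and 8 leukocyte markers to 233 to 274. The summed level of 7 keratinocyte markers was 3963 to 8919 FPKM over the 4 groups. In whole tissue, fewer cells of a type and less RNA per cell cannot be told apart.

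The claudins differed widely in level. FPKM is scaled by transcript length, but the libraries still differed in how it followed length and GC content. The order of genes within a group is therefore approximate. *Cldn1* had the highest mean in every group. In wild type mice at 2 weeks it was 83.1 ± 5.51 FPKM (SD, n = 4), followed by *Cldn4* at 60.8 ± 5.99 (n = 4), and neither range overlapped with the next gene. *Cldn5* (15.4) and *Tjp1* (13.7) came next with overlapping ranges, then *Cldn3* (9.46), *Ocln* (8.59) and *Cldn23* (8.4), whose ranges also overlapped from one to the next. *Cldn12* (7.19), *Cldn8* (4.96) and *Cldn7* (0.502) closed the order, each apart from its neighbour. In wild type mice at 10 weeks *Cldn5* ranked above *Cldn4*, at means of 27.3 and 24, although their ranges overlapped. The ranges of *Cldn1* and *Cldn5* overlapped there too, and in replicate 3 *Cldn5* (32.7 FPKM) lay above *Cldn1* (29 FPKM).

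**Figure D1:**
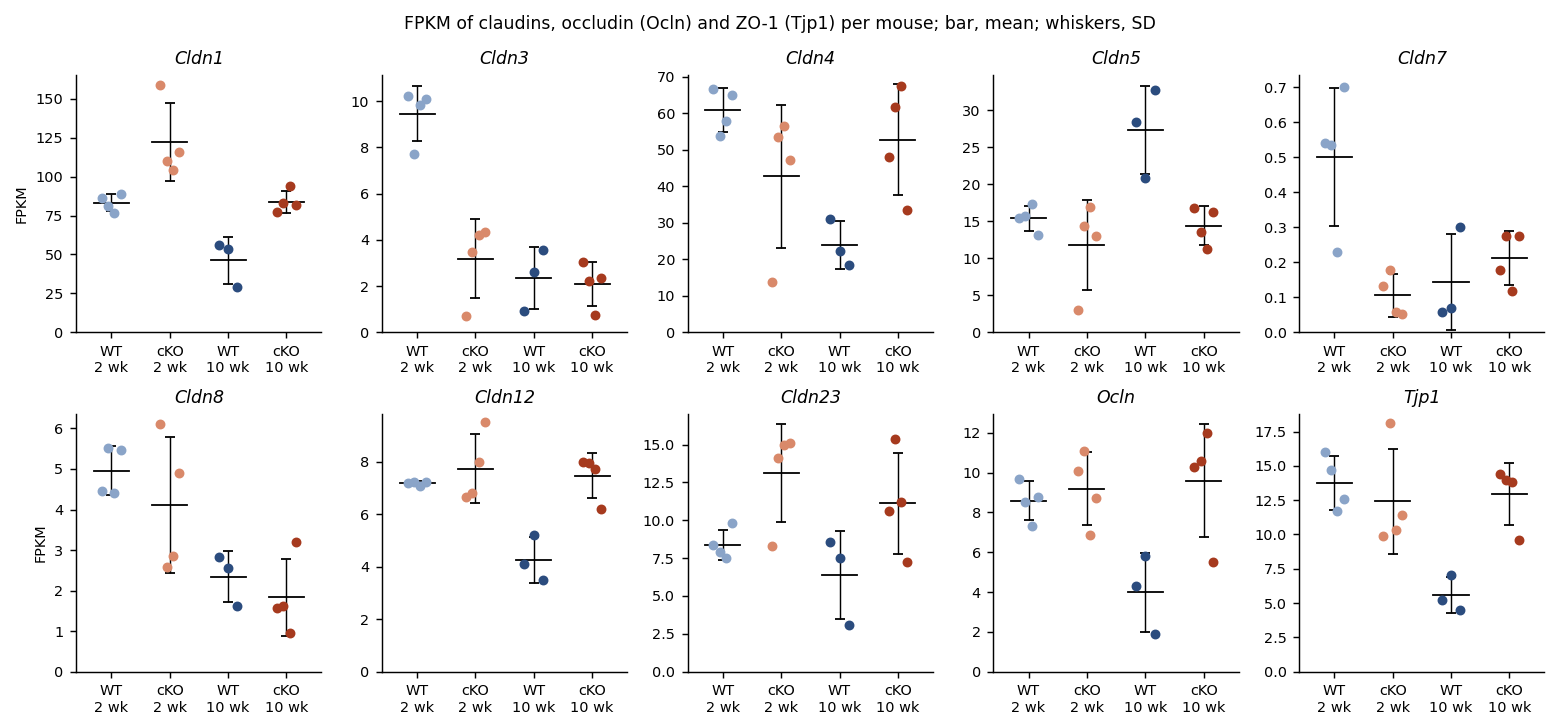
FPKM of each of the 10 genes by group (linear axes from 0, a scale for each gene; 1 point per mouse, bar for the mean, whiskers for the SD; WT is wild type and wk is weeks). *Cldn1* of *Socs3* cKO lies above the wild type at both ages, *Cldn3* lies higher in the wild type at 2 weeks (7.69 to 10.2 FPKM) than in the other groups, and *Cldn4*, *Cldn12*, *Ocln* and *Tjp1* have their lowest means in the wild type at 10 weeks (24, 4.27, 3.99 and 5.59 FPKM).

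At 2 weeks none of the tested members met the criteria for a differentially expressed gene (DEG), which were an adjusted p below 0.01 and a |log2(FC)| of at least 1 in limma on log2(FPKM + 0.1). Of the 9 members that reached 1 FPKM in 3 or more samples, 0 were DEGs, against 14.4% of the 13524 genes tested (7.24% up-regulated and 7.19% down-regulated). An unadjusted p below 0.05 was reached by 3 of the 9, which were *Cldn1*, *Cldn3* and *Cldn23*. The same 3 had an adjusted p below 0.05, as did 47.9% of all genes tested.

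*Cldn1*, the main claudin of the epidermis, was at 86.4, 80.9, 76.5 and 88.7 FPKM in wild type mice at 2 weeks, against 159, 110, 104 and 116 FPKM in *Socs3* cKO. Every *Socs3* cKO mouse lay above every wild type mouse, by 1.45-fold (log2(FC) 0.54, SE 0.16, adjusted p = 0.0236 in limma). The difference was -0.07 on the log2 scale once the trend of each library with transcript length and GC content was removed. The *Cldn1* transcript has 3247 bases and holds 42.3% GC, less than most genes (13.5% of genes are lower).

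*Cldn3*, a sealing claudin of many epithelia, was at 10.2, 7.69, 9.85 and 10.1 FPKM in wild type mice at 2 weeks. In *Socs3* cKO it was at 0.7, 3.49, 4.23 and 4.33 FPKM, all below the wild type. The log2(FC) of -1.80 had an SE of 0.52 and an adjusted p of 0.0232 in limma. Replicate 1 of *Socs3* cKO was the lowest, and without it the difference was smaller and less variable, at -1.21 (adjusted p = 0.000184), which meets the DEG criteria. At 62.7% its transcript has a higher GC content than 98.5% of genes, and the part of base composition in this difference was not tested beyond the fit with the trend removed, which gave -1.16.

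*Cldn23*, known from the surface cells of the gut lining, was at 8.39, 7.88, 7.53 and 9.79 FPKM in the wild type at 2 weeks. In *Socs3* cKO it was at 8.32, 14.1, 15 and 15.1 FPKM. In *Socs3* cKO 3 of 4 mice lay above the wild type and replicate 1 lay among it, and the log2(FC) was 0.61 (SE 0.22, adjusted p = 0.0469 in limma).

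*Cldn4* and *Cldn5* were lowest at 2 weeks in the same library. *Cldn4* was at 66.6, 53.9, 57.8 and 64.9 FPKM in the wild type, against 13.9, 53.5, 56.5 and 47.1 in *Socs3* cKO, so replicate 1 stood far below all other mice, 2 further *Socs3* cKO mice lay below the wild type by less, and 1 lay within its range. Its log2(FC) was -0.69 (SE 0.42, adjusted p = 0.189 in limma) and lay between -0.89 and -0.21 when each mouse was left out in turn. *Cldn5* was at 15.4, 15.7, 17.3 and 13.2 FPKM in the wild type, against 2.99, 14.4, 16.9 and 13 in *Socs3* cKO. Replicate 1 again stood far below, while the other 3 lay within or just under the wild type range. The log2(FC) of -0.63 (SE 0.49, adjusted p = 0.304 in limma) moved to between -0.88 and -0.06 with 1 mouse left out.

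The remaining members at 2 weeks overlapped between the genotypes, except *Cldn7*. *Cldn12*, a claudin without the usual scaffold-binding tail, was at 7.09 to 7.24 FPKM in the wild type, against 6.65 to 9.53 in *Socs3* cKO (log2(FC) 0.09). *Cldn8*, known from the kidney collecting duct, was at 4.41 to 5.51 and 2.58 to 6.1 FPKM (-0.35), *Ocln* at 7.33 to 9.69 and 6.85 to 11.1 (0.08), and *Tjp1* at 11.7 to 16 and 9.87 to 18.1 (-0.18). Their adjusted p in limma ran from 0.324 to 0.724. *Cldn7* was at 0.541, 0.536, 0.23 and 0.702 FPKM in the wild type, against 0.132, 0.178, 0.0584 and 0.0534 in *Socs3* cKO, all lower, but it did not reach 1 FPKM in any mouse and was not tested in the main comparison. Over all 10 members, 1 lay above the wild type in every *Socs3* cKO mouse and 2 lay below it, which are 3 of 10 whose groups did not overlap, against 56.1% of all genes tested (22.9% above and 33.2% below).

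At 10 weeks the picture was different, with higher values for 6 of the 9 tested members in *Socs3* cKO. *Tjp1* was the 1 member of the 9 tested that met the DEG criteria, against 14.9% of the 13105 genes tested. Of all genes, 12.5% were up-regulated and 2.43% down-regulated. An adjusted p below 0.05 was reached by 6 of the 9 members (*Cldn1*, *Cldn4*, *Cldn5*, *Cldn12*, *Ocln* and *Tjp1*), and by 37.6% of all genes. The median log2(FC) of the 9 was 0.86, with 0.31 over all genes tested. At 2 weeks these medians had been -0.18 and -0.21. Quantile normalization brought the medians of all genes to 0.05 at 2 weeks and -0.02 at 10 weeks, so differences are also given relative to the median of all genes.

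*Tjp1* (ZO-1) was at 5.23, 7.02 and 4.53 FPKM in wild type mice at 10 weeks, against 14.4, 14, 13.8 and 9.59 FPKM in *Socs3* cKO. Every *Socs3* cKO mouse lay above every wild type mouse, by 2.3-fold (log2(FC) 1.20, SE 0.22, adjusted p = 0.0036 in limma). Relative to the median of all genes the difference was 0.89. It stayed positive under every scaling run, at 0.94 with median-of-ratios scaling, 0.81 with quantile normalization and 0.72 with the length and GC trend removed, each with an adjusted p below 0.01 but below the fold criterion. Leaving out wild type replicate 1 or 3 or *Socs3* cKO replicate 1, 2 or 3 gave log2(FC) values of 1.06 to 1.16 and an adjusted p from 0.0115 to 0.0176, so the DEG call was lost in 5 of the 7 cases.

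*Ocln* also had higher values at 10 weeks, without passing the test. It was at 4.28, 5.8 and 1.87 FPKM in the wild type, against 10.3, 10.6, 12 and 5.52 in *Socs3* cKO. One *Socs3* cKO mouse lay within the wild type range, and the log2(FC) of 1.33 (SE 0.39, adjusted p = 0.024 in limma) met the fold criterion but not the p criterion. Relative to all genes it was 1.02.

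Both main epidermal claudins had higher values in every *Socs3* cKO mouse at 10 weeks, without passing the test. *Cldn1* was at 55.9, 53.7 and 29 FPKM in the wild type, against 77.1, 83, 93.9 and 81.5 in *Socs3* cKO, with no overlap (log2(FC) 0.91, SE 0.23, adjusted p = 0.0143 in limma). *Cldn4* was at 31.1, 22.4 and 18.4 FPKM in the wild type, against 48, 61.8, 67.5 and 33.5 in *Socs3* cKO, also with no overlap. Its log2(FC) of 1.12 (SE 0.27) missed the threshold with an adjusted p of 0.0111 in limma. It passed without *Socs3* cKO replicate 4, the lowest of its group, at 1.32 (adjusted p = 0.0042), and with the length and GC trend removed, at 1.51 (adjusted p = 0.00437).

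*Cldn12* was at 4.11, 5.22 and 3.49 FPKM in the wild type at 10 weeks and at 7.99, 7.97, 7.75 and 6.22 in *Socs3* cKO. The groups did not overlap, and the log2(FC) was 0.81 (SE 0.21, adjusted p = 0.0145 in limma). *Cldn23* was at 8.56, 7.49 and 3.1 FPKM in the wild type, against 10.6, 15.4, 11.2 and 7.26 in *Socs3* cKO, with overlap (0.86, SE 0.36, adjusted p = 0.0852).

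*Cldn5* had lower values. It was at 28.4, 20.9 and 32.7 FPKM in wild type mice at 10 weeks, against 16.8, 13.5, 11.2 and 16.2 in *Socs3* cKO, every *Socs3* cKO mouse below every wild type mouse. The log2(FC) was -0.91 (SE 0.21), with an adjusted p of 0.00973 in limma but below the fold criterion. Only 4.95% of the genes tested had a lower log2(FC), and relative to the median of all genes the difference was -1.22. It met both criteria after median-of-ratios scaling (-1.17) or quantile normalization (-1.20) and without wild type replicate 2 (-1.09, adjusted p = 0.00452 in limma), and shrank to -0.29 with the length and GC trend removed. The *Cldn5* transcript has 1414 bases and holds 60.5% GC, more than 96.1% of genes. Length and GC content were removed together, and their parts were not separated.

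The low claudins did not separate at 10 weeks. *Cldn3* was at 0.92, 2.62 and 3.55 FPKM in the wild type, against 3.05, 2.22, 0.743 and 2.35 in *Socs3* cKO (log2(FC) -0.13, SE 0.53), and its sign turned without wild type replicate 2 (0.03) or 3 (0.24) or *Socs3* cKO replicate 3 (0.27). *Cldn8* was at 1.63 to 2.84 and 0.952 to 3.19 FPKM (-0.42, SE 0.38), and *Cldn7* was at 0.0595 to 0.301 and 0.118 to 0.276 FPKM. Of the 10 members, 4 lay above the wild type in every *Socs3* cKO mouse (*Cldn1*, *Cldn4*, *Cldn12* and *Tjp1*) and 1 lay below it (*Cldn5*). That is 5 of 10 without overlap, against 42.3% of all genes tested, of which 31.2% lay above and 11.1% below.

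**Figure D2:**
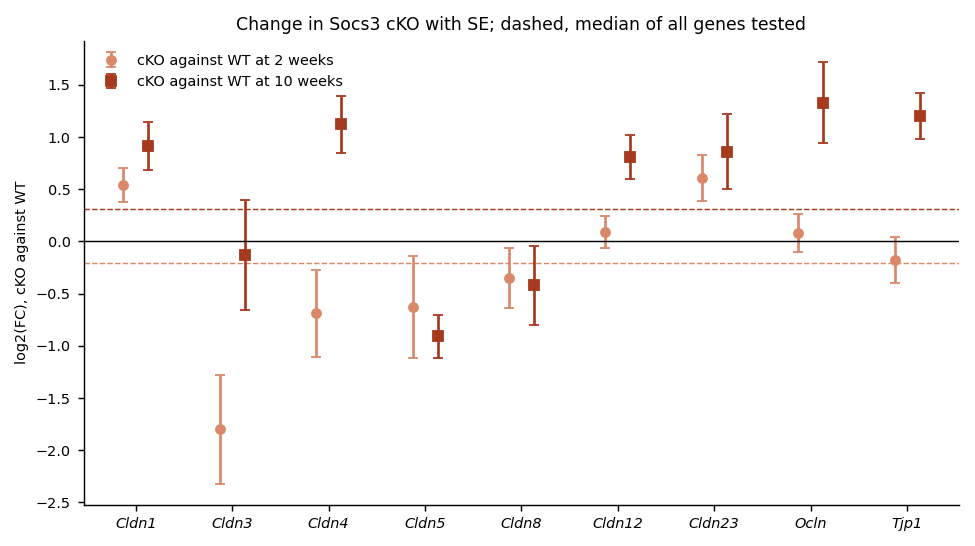
log2(FC) of *Socs3* cKO against wild type for the 9 tested members at 2 weeks (circles) and 10 weeks (squares), with SE; dashed lines mark the median of all genes tested at each age (-0.21 and 0.31). *Ocln*, *Tjp1*, *Cldn3*, *Cldn4* and *Cldn12* have higher values at 10 weeks than at 2 weeks by more than the SE, while *Cldn8* lies below 0 at both and *Cldn1* and *Cldn23* above.

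The 2 ages were compared directly by the genotype by age interaction over all 15 mice. *Tjp1* was the 1 member of 9 with an adjusted p below 0.01, at an interaction of 1.38 on the log2 scale (SE 0.32, adjusted p = 0.00399 in limma), where 25.6% of all 13937 genes passed (18.5% with a positive and 7.05% with a negative interaction, that is the log2(FC) at 10 weeks minus that at 2 weeks). The interaction of all genes had a median of 0.55, and *Tjp1* lost the call with median-of-ratios scaling (0.92, adjusted p = 0.012) and quantile normalization (0.70, adjusted p = 0.0339). It also lost it by a small margin without wild type replicate 1 at 2 weeks, wild type replicate 1 or 3 at 10 weeks or *Socs3* cKO replicate 1 at 10 weeks (1.24 to 1.35, with the adjusted p from 0.01 to 0.0135 in limma). *Cldn4* had the largest interaction of the members, 1.81 (SE 0.55, adjusted p = 0.0158), that of *Cldn3* was 1.67 (SE 0.81, adjusted p = 0.102) and that of *Ocln* was 1.25 (adjusted p = 0.0365). Without *Socs3* cKO replicate 1 at 2 weeks, the low library for *Cldn4*, its interaction was 1.33 with an adjusted p of 0.00335 in limma, and it also passed after quantile normalization (1.66), with the length and GC trend removed (1.82), and without *Socs3* cKO replicate 2 at 2 weeks (1.98) or replicate 4 at 10 weeks (2.01). That of *Cldn12* was 0.71 (adjusted p = 0.0274) and passed without wild type replicate 2 at 10 weeks (0.86, adjusted p = 0.00947). For *Cldn1*, *Cldn5*, *Cldn8* and *Cldn23* the interaction lay between -0.29 and 0.37.

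In the wild type 8 of the 9 tested members had lower values at 10 weeks than at 2 weeks. Among the 9 tested, 3 were down-regulated DEGs (*Cldn3*, *Ocln* and *Tjp1*), against 25.5% of all genes tested, which divide into 19.4% down-regulated and 6.18% up-regulated. *Cldn3* fell from a mean of 9.46 to 2.36 FPKM (log2(FC) -2.13, SE 0.59, adjusted p = 0.00904 in limma), *Ocln* from 8.59 to 3.99 (-1.22, SE 0.34, adjusted p = 0.00839) and *Tjp1* from 13.7 to 5.59 (-1.29, SE 0.23, adjusted p = 0.000564). *Cldn1* (-0.90) and *Cldn12* (-0.76) passed the p criterion but not the fold criterion, and *Cldn4* (-1.37, adjusted p = 0.012) and *Cldn8* (-1.08, adjusted p = 0.0242) did not pass the former. The median of all genes was -0.44, and with median-of-ratios scaling none of the 3 calls held (*Cldn3* -1.76, *Ocln* -0.84, *Tjp1* -0.91). The *Cldn3* call was lost whichever mouse was left out (-2.51 to -1.59, adjusted p from 0.0121 to 0.0588 in limma). That of *Ocln* was lost without any of them but wild type replicate 2 at 10 weeks (-1.34 to -0.76), while *Cldn1* became a DEG without replicate 1 (-1.07) or 2 (-1.04) at 10 weeks. *Cldn5* was higher at 10 weeks in every wild type mouse than at 2 weeks (27.3 against 15.4 FPKM), with a log2(FC) of 0.81 (SE 0.44, adjusted p = 0.133). After quantile normalization *Cldn5* was an up-regulated DEG (1.19, adjusted p = 0.00763 in limma). In all, 7 of 10 members lay wholly below and 1 wholly above their values at 2 weeks, where 66.8% of all genes did not overlap (49.5% below and 17.3% above).

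In *Socs3* cKO the 2 ages were much closer. None of the 9 members was a DEG between 10 and 2 weeks, where 3.54% of all genes were (2.01% up-regulated and 1.53% down-regulated). An unadjusted p below 0.05 was reached by 2 of them, *Cldn1* (-0.53, adjusted p = 0.104) and *Cldn8* (-1.15, adjusted p = 0.0439 in limma). The means of *Cldn8* were 4.11 FPKM at 2 weeks and 1.84 at 10 weeks. *Cldn1* was the 1 of 10 members whose ages did not overlap, all below, against 14.5% of all genes (6.79% below and 7.71% above). The 3 age and interaction comparisons share their samples with those at 2 and 10 weeks, so they are no independent evidence.

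*Cldn5* was read beside other endothelial genes because claudin-5 marks vessel endothelium. The 10 endothelial markers, among them *Pecam1*, *Cdh5* and *Tie1*, summed at 2 weeks to 134 to 152 FPKM in the wild type, against 83.7 to 108 in *Socs3* cKO. Their sum was 58.8 to 61.6 in the wild type, against 71.6 to 103 in *Socs3* cKO at 10 weeks. None of them was at 0 in a whole group. At 10 weeks 8 of the 10 had higher values in *Socs3* cKO, and 3 of these were up-regulated DEGs, against 12.5% of all genes tested. Their median log2(FC) was 0.69, with 0.31 over all genes. The other 2 of the 10, *Sox18* and *Egfl7*, had lower values in *Socs3* cKO at 10 weeks, as *Cldn5* did. Their means were 3.96 and 21.6 FPKM in the wild type, against 2.25 and 17.9 in *Socs3* cKO. Between the ages 8 of the 10 were down-regulated in the wild type, against 19.4% of all genes tested. *Cldn5* had higher FPKM there at 10 weeks, as did *Emcn* (mean 6.13 FPKM at 2 weeks, 8.15 at 10 weeks). The level of *Cldn5* minus the mean log2 level of the 10 genes was 2.94, 2.19 and 3.12 in wild type mice at 10 weeks and 1.18, 1.31, 0.98 and 1.13 in *Socs3* cKO. The groups did not overlap, and their means of 2.75 ± 0.49 (SD, n = 3) and 1.15 ± 0.14 (n = 4) differed by -1.60. The exact permutation test gave p = 0.0571 (2-sided), the smallest it can give for 3 mice against 4, so this design could not reach 0.05. At 2 weeks the means were 0.43 ± 0.18 and 0.53 ± 0.67 (n = 4 each), a difference of 0.10 (exact permutation test, 2-sided, p = 0.83), where replicate 1 of *Socs3* cKO was at -0.44. Both of these tests were run, and the p-values were not adjusted. The log2(FC) of *Cldn5* itself at 10 weeks shrank from -0.91 to -0.29 with the length and GC trend of each library removed. The level of *Cldn5* relative to the 10 genes was also compared with this trend removed, and the difference kept its sign at both ages. Its size in that setting is not reported here, so the part of length and base composition in it is not given.

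**Figure D3:**
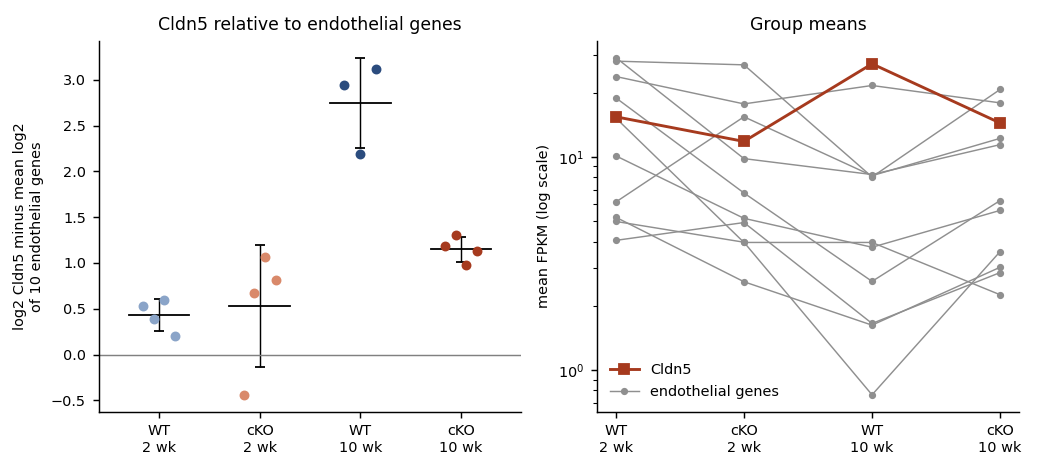
Left, log2 *Cldn5* minus the mean log2 of 10 endothelial genes per mouse (points; bar, mean; whiskers, SD); right, mean FPKM of *Cldn5* (squares) and of each endothelial gene (circles) by group on a log axis. The 3 wild type mice at 10 weeks lie at 2.19 to 3.12, above all other mice, and *Cldn5* has its highest mean there.

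At 2 weeks the claudin sum overlapped between the genotypes while the share of *Cldn1* in it did not. Summed over 21 claudin genes, the level was 206 ± 11 FPKM (SD, n = 4) in the wild type and 217 ± 6.68 (n = 4) in *Socs3* cKO at 2 weeks, and 120 ± 17.6 (n = 3) and 180 ± 18.1 (n = 4) at 10 weeks. The 8 claudins described here made up 92.4% to 96.3% of it on average in each group. At 2 weeks *Cldn1* took 40.4% of the claudin sum in the wild type, against 56.8% in *Socs3* cKO. Single *Socs3* cKO mice ranged from 47.2% to 76.8%, the highest being replicate 1, and all lay above the wild type range of 39% to 41.3%. At 10 weeks its share was 37.7% and 46.8%. *Cldn5* took 23.3% of the sum in the wild type at 10 weeks and 5.39% to 8.15% in the other groups. The ratio of *Cldn1* to *Cldn4* was 1.37 in the wild type at 2 weeks and from 1.85 to 11.4 in *Socs3* cKO, with a median of 2.27. *Cldn1* has a lower GC content (42.3%) than *Cldn4* (56.9%), *Cldn5* (60.5%) and *Cldn3* (62.7%). With the length and GC trend of each library removed, the log2(FC) of *Cldn1* at 2 weeks was -0.07. The part of base composition in the shares and the ratio was not tested.

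**Figure D4:**
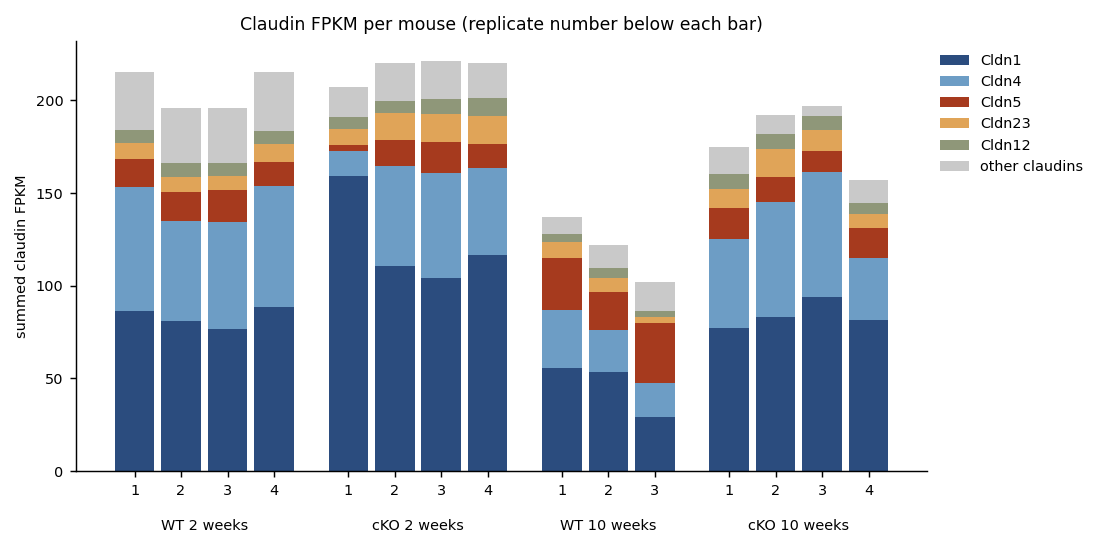
Summed FPKM of the claudin genes in each mouse (stacked bars from 0; replicate number below each bar), divided into *Cldn1*, *Cldn4*, *Cldn5*, *Cldn23*, *Cldn12* and all other claudins. The sum is lowest in the 3 wild type mice at 10 weeks (102 to 137 FPKM), where *Cldn5* takes its largest share.

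Genes that act beside these 10 were taken from fixed lists. Of 18 other claudins, 13 were in the files and 4 were tested at 2 weeks. *Cldn14*, a claudin known from the inner ear, was at 2.14 to 2.56 FPKM in the wild type, against 0.0561 to 0.205 in *Socs3* cKO at 2 weeks, a down-regulated DEG (log2(FC) -3.72 on the log2(FPKM + 0.1) scale, SE 0.26, adjusted p = 6.56e-05 in limma). *Cldn2*, which forms a channel for small cations, was at 0.715 to 1.11 and 2.05 to 4.93 FPKM, an up-regulated DEG (1.93, SE 0.29, adjusted p = 0.00194). Both kept their calls under each of 3 scalings and without *Socs3* cKO replicate 1, settings that all keep the added 0.1 FPKM. *Cldn14* entered the test through its wild type values alone, and *Cldn2* through those of *Socs3* cKO. The *Socs3* cKO values of *Cldn14* lie near the added 0.1, so the size of its log2(FC) depends on that setting. None of the 3 other claudins tested at 10 weeks was a DEG.

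Of 10 other membrane proteins of the tight junction tested at 2 weeks, 1 was a DEG. It was *Ildr1*, an angulin of the corners where 3 cells meet, at 2.57 to 3.09 FPKM in the wild type, against 0.226 to 0.791 in *Socs3* cKO (log2(FC) -2.13, SE 0.33, adjusted p = 0.00207 in limma). No *Socs3* cKO mouse reached 1 FPKM, so *Ildr1* entered the test through the wild type alone. At 10 weeks 1 of 8 was a DEG, *Jam2*, an adhesion molecule also found on endothelium, at 2.85 to 3.97 and 5.97 to 11.3 FPKM (1.28, adjusted p = 0.00447). The *Jam2* call was lost with quantile normalization (0.83).

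The plaque and polarity proteins lie under the membrane and link the strands to the cytoskeleton. Of the 25 genes of this list tested at each age, 1 was up-regulated (*Mpp5*, 1.11) and 1 down-regulated at 2 weeks, with a median of -0.56. The *Mpp5* call was lost without *Socs3* cKO replicate 1 (0.94) and with the length and GC trend removed (0.46). At 10 weeks 5 were up-regulated and 0 down-regulated, with a median of 0.52. The largest 3 were *Wwc1* (2.02), the polarity gene *Pard3* (1.40) and *Amotl2* (1.27). With quantile normalization 2 genes of the list were up-regulated at 10 weeks.

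The adherens junction, which lies below the tight junction and holds cells together through cadherins, had 10 genes tested. None was a DEG at 2 weeks, where 9 of 10 were lower in *Socs3* cKO (median log2(FC) -0.82). *Cdh1* (E-cadherin) had a log2(FC) of -1.26 there (adjusted p = 0.036 in limma). At 10 weeks all 10 were higher (median 0.76) and 3 were up-regulated DEGs, *Cdh1* (2.16, adjusted p = 0.00887), *Pvrl4* (1.41) and the catenin *Ctnnd1* (1.29). None of the 3 passed with quantile normalization, at 1.88, 1.11 and 1.01. Of 8 claudin partners and membrane serine protease genes, such as *Epcam* and *St14*, 0 were DEGs at either age in limma.

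Of 15 transcription factors known from epithelial junction genes, 1 was a DEG at 2 weeks, the epithelial ETS factor *Ehf* (1.04, SE 0.16, adjusted p = 0.00199 in limma), which lost the call with the trend removed (0.59). At 10 weeks 5 were up-regulated, the largest being *Ehf* (2.49), the related *Elf3* (2.06) and the grainyhead factor *Grhl3* (1.85). The other 2 were *Zeb2* (1.36) and *Zeb1* (1.16), known as repressors of epithelial junction genes. *Ehf* was at 1.88 to 5.73 FPKM in the wild type, against 12.5 to 36.4 in *Socs3* cKO at 10 weeks. *Elf3* was at 0.569 to 0.899 FPKM in the wild type at 10 weeks, against 2.24 to 6.08 in *Socs3* cKO. It therefore entered that test through *Socs3* cKO alone. After quantile normalization 2 were up-regulated and 1 was down-regulated. *Elf3* had a log2(FC) of -1.97 at 2 weeks (adjusted p = 0.0257 in limma), which did not pass. The counts in these lists stand beside 14.4% and 14.9% of all genes called at the earlier and later age.

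At 10 weeks all 7 keratinocyte markers had higher values in *Socs3* cKO, and 1 of them was an up-regulated DEG, against 12.5% of all genes tested. It was *Cdh1* (2.16), also counted above among the adherens junction genes, which lost the call with quantile normalization. The differences below relative to the 7 markers include *Cdh1* and were not computed without it. At 2 weeks 5 of the 7 had lower values and 2 were up-regulated DEGs, against 7.24% of all genes tested. The 7 keratinocyte markers, with *Krt5* and *Krt14* among them, summed to 3963 to 6525 FPKM in wild type mice of 10 weeks, against 6727 to 8628 in *Socs3* cKO. At 2 weeks these sums were 5074 to 5207 and 6603 to 8919, while the mean log2 level was 8.05 in the wild type, against 7.78 in *Socs3* cKO. Relative to their mean log2 level, the difference at 10 weeks was 0.02 for *Cldn1*, 0.22 for *Cldn4*, -0.09 for *Cldn12*, -0.03 for *Cldn23*, 0.43 for *Ocln* and 0.30 for *Tjp1*. It was -1.81 for *Cldn5*, -1.32 for *Cldn8* and -1.03 for *Cldn3*. At 2 weeks it was 0.81 for *Cldn1*, 0.87 for *Cldn23* and -1.54 for *Cldn3*. Without *Socs3* cKO replicate 1, a setting chosen after seeing the data, these became 0.38, 0.78 and -1.24. The 7 granular layer markers in the files, the layer in which tight junctions lie, summed to 2199 to 3961 FPKM in wild type mice of 10 weeks, above the 1174 to 1766 in *Socs3* cKO, a sum in which *Lor* had means of 1221 and 197. Their mean log2 level went the other way, at 6.31 and 6.54, and 5 of the 7 had higher values in *Socs3* cKO. The part of keratinocyte or granular layer content in the differences was not tested. The 7 hair shaft markers summed to 407 to 635 FPKM in the wild type at 2 weeks and 3.52 to 13.4 in the other groups. The 6 Schwann cell markers summed to 325 to 356 FPKM and 67.2 to 263. Both sums, and that of the endothelial markers, were highest in the group in which *Cldn3* and *Cldn14* were highest. The part of these cell types in the differences of *Cldn3* and *Cldn14* was not tested.

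Base composition separated the members. *Cldn3* (62.7% GC), *Cldn5* (60.5%), *Cldn7* (57.0%) and *Cldn4* (56.9%) lie in the upper range, with *Cldn23* at 54.8%. *Tjp1* (46.8%), *Cldn12* (44.4%), *Cldn1* (42.3%), *Ocln* (42.0%) and *Cldn8* (40.6%) lie below the median of 49.7%. With the length and GC trend of each library removed, *Cldn3* stayed lower at 2 weeks (-1.16), *Cldn8* became a down-regulated DEG (-1.37, adjusted p = 0.00117 in limma), and *Ocln* and *Cldn12* turned from 0.08 and 0.09 to -0.45 and -0.27. At 10 weeks *Cldn4* (1.51), *Cldn23* (1.17), *Ocln* (0.97), *Tjp1* (0.72), *Cldn1* (0.66) and *Cldn12* (0.53) stayed higher, *Cldn5* (-0.29) and *Cldn8* (-0.51) stayed lower, and *Cldn3* turned to 0.60.

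**Figure D5:**
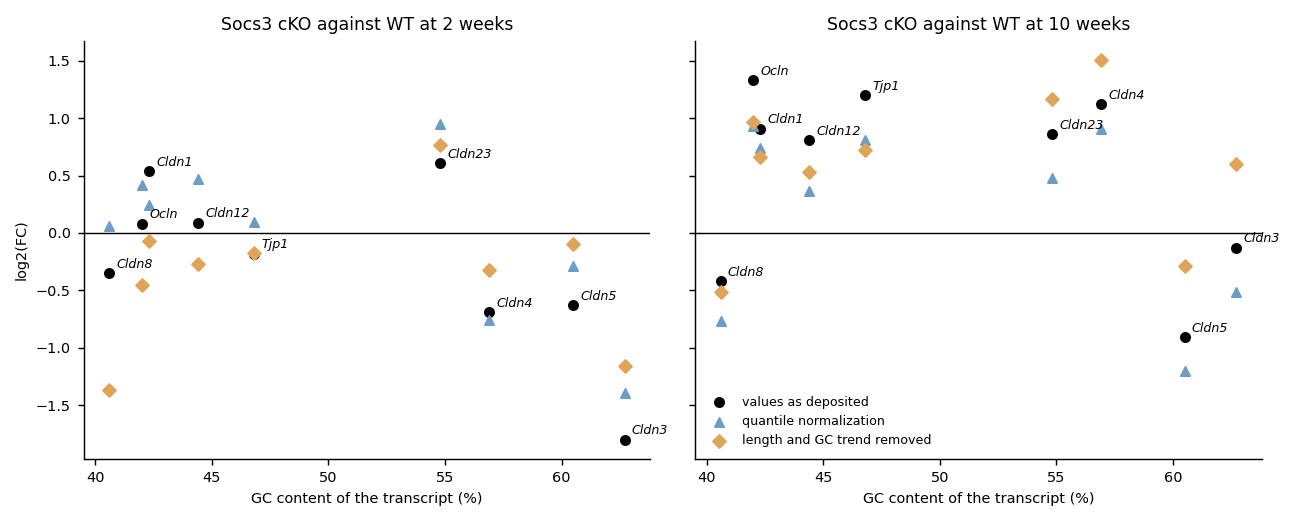
log2(FC) of *Socs3* cKO against wild type for each tested member against the GC content of its transcript (percent), at 2 weeks (left) and 10 weeks (right), for the values as deposited (circles), after quantile normalization (triangles) and with the length and GC trend of each library removed (diamonds). At 2 weeks *Cldn8* moves most with the trend removed, to -1.37, and at 10 weeks *Cldn3* and *Cldn5* move up, to 0.60 and -0.29.

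The promoters of *Cldn4*, *Ocln* and *Tjp1*, the members with the largest log2(FC) at 10 weeks, and of *Cldn5*, the member with the lowest, are shown for the 250 bases before the start of the gene, from RefSeq on GRCm38.p6, which is not the build of the files. The positions are chr5:134946935-134947184 for *Cldn4*, chr13:100552499-100552748 for *Ocln* and chr7:65371245-65371494 for *Tjp1*, all on the minus strand, and chr16:18776597-18776846 on the plus strand for *Cldn5*. Capitals mark matches to motif letters searched on both strands: AP-1 as TGANTCA, STAT as TTCNNNGAA, grainyhead as AACNNGTT, the Snail E-box as CAGGTG and the TATA box as TATAAA.

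Cldn4: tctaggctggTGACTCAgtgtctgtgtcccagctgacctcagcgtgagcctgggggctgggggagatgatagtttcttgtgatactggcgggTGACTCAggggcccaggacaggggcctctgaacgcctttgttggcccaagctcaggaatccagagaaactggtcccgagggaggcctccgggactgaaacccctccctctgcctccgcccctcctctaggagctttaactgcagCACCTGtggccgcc
Cldn5: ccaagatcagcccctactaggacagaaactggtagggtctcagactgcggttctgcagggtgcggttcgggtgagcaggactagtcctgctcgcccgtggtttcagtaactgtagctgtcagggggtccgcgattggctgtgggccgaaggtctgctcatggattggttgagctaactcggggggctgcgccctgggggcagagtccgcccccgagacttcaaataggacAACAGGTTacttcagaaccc
Ocln: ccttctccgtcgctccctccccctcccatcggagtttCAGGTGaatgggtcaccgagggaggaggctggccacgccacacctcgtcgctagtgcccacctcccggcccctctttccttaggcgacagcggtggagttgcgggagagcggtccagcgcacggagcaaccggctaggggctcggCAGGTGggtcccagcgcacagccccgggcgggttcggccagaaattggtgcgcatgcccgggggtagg
Tjp1: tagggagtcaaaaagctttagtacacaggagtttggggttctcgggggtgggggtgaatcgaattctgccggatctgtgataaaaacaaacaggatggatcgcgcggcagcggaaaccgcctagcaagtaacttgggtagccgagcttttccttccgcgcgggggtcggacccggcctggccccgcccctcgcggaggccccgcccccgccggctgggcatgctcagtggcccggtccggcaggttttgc

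*Cldn4* held the AP-1 letters at 240 and 158 bases before its start and the Snail E-box letters 14 bases before it. *Ocln* has 2 listed starts, and held the Snail E-box letters 213 and 68 bases before the one shown and none of the 5 motifs before the other. *Cldn5* held the grainyhead letters 20 bases before its start. *Tjp1*, *Cldn1* and *Cldn3* held none of the 5 in this window. *Cldn12* has 3 listed starts, and held the STAT letters 89 bases before 1 of them and 29 before another. *Cldn7* has 2, and held the STAT letters 185 and the Snail E-box letters 97 and 57 bases before 1 of them. *Cldn8* and *Cldn23* are named only. Among 32851 promoters of the same length, 6.7% held the AP-1 letters, 7.0% the STAT letters, 3.6% the grainyhead letters, 17.2% the Snail E-box letters and 12.4% the TATA letters. A match is a description of letters and not a bound site.

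Across the 15 mice, *Ocln* and *Tjp1* were the pair of members most alike (Pearson r = 0.89 of log2 values) and *Cldn1* and *Cldn5* the least (r = -0.82), with *Cldn3* and *Cldn4* at 0.49. These points share libraries, groups and base composition, and the values are descriptions. Among 13937 genes, those most like *Cldn1* were *Hbp1*, *Yes1* and *Cyfip1* (r = 0.97 each). For *Cldn3* they were *Sox10*, *Sall2* and *Telo2* (0.95 to 0.96), for *Cldn4* *Zswim4* and *Trim29* (0.97 and 0.95), and for *Cldn5* *B930041F14Rik*, *Drap1* and *2310061J03Rik* (0.97 to 0.98). For *Cldn8* they were *Syt4*, *Tor2a* and *Zfp606* (0.91 to 0.92), for *Cldn12* *Xpo5*, *Nadk* and *Pdlim5* (0.94 to 0.95), and for *Cldn23* *Cln8*, *1110067D22Rik* and *Alox12b* (0.92 to 0.96). *Ocln* was closest to *Mbtd1*, *Zbtb43* and *Xiap* (0.96 to 0.97), and *Tjp1* to *C230081A13Rik*, *Ncoa6* and *Usp54* (0.97 to 0.98).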

How the data were processed

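Ear RNA was sequenced as single 50-base reads in 15 libraries, grouped by the genotype and age in the labels. The paper states further wild type mice, which were not analysed here. Per the submitters' processing notes, the authors used TopHat2 2.1.0, Cufflinks and mm9, and they deposited 1 FPKM value per gene, scaled for transcript length and mapped reads. The authors tested genes with edgeR. Only FPKM was used here, and the depth of a library is therefore unknown.

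FPKM was analysed as log2(FPKM + 0.1) with limma 3.58.1 in R 4.3.3 (trended prior variance, 2-sided, Benjamini-Hochberg adjustment over all genes tested). Genes entered a fit if 3 or more of its samples reached 1 FPKM. Genotypes were compared within each age, and changes with age and the interaction over all 15 samples. A DEG needed an adjusted p under 0.01 with a |log2(FC)| of 1 or more, and an interaction the former alone. *Cldn5* relative to endothelial genes was compared by an exact permutation test. Python 3.11.15 (pandas 2.3.3, matplotlib 3.10.9) made the other values, and the limma step was tested on simulated data.

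The members, lists and tests were chosen with earlier results of these data known. All 10 members were named, with up to 3 DEGs per other list and age by largest |log2(FC)| and the 3 genes most alike each member. *Zeb1*, *Zeb2* and *Elf3* at 2 weeks were added after their values were seen, and some genes that this rule names are not reported here. Positions and GC content came from GENCODE vM1 on mm9, in which 20533 of 21110 genes were found by symbol and 19443 had a GC content. The alternatives were pseudocounts of 1 and 0.01, no filter, a filter that asks for 1 FPKM in all mice of a group, scaling by median-of-ratios, quantiles, removal of the trend of each library with length and GC content, a block for the replicate number, 1 fit over all 4 groups, a constant prior variance and each mouse left out in turn. Any pair of libraries shared at most 1 identical value above 0. The labels do not give litters, and p-values measure the spread between these mice.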

Additional observations from a re-analysis of the deposited data

Results flagged for a closer look

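Of 30 groups of 4 mice checked over the 10 genes, 4 held a mouse whose gap to its nearest neighbour, as a share of the range of the group, was above Dixon's 95% critical value, and chance flags about 1 in 20 groups. *Cldn3* was lowest in 1 wild type mouse at 2 weeks (7.69 FPKM, ratio 0.861). *Cldn23* was lowest in 1 *Socs3* cKO mouse at 2 weeks (8.32 FPKM, ratio 0.857), which is replicate 1, the library that stands apart by base composition. *Cldn12* (6.22 FPKM, ratio 0.863) and *Tjp1* (9.59 FPKM, ratio 0.87) were lowest in the same *Socs3* cKO mouse at 10 weeks, replicate 4. The part of that library in the results was not tested beyond leaving it out.

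The difference of *Tjp1* between *Socs3* cKO and the wild type differed between the ages, with an interaction of 1.38 (adjusted p = 0.00399 in limma). Of all genes, 25.6% passed the interaction, and its median over all genes was 0.55. *Tjp1* lost the call with median-of-ratios scaling (0.92, adjusted p = 0.012 in limma) and quantile normalization (0.70, adjusted p = 0.0339). At 10 weeks 4 of 4 *Socs3* cKO mice lay above every wild type mouse, as in 31.2% of all genes tested. At 2 weeks the genotypes overlapped.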

How the results depend on the processing

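The 0, 1, 3, 0 and 1 members called at 2 weeks, at 10 weeks, with age in the wild type, with age in *Socs3* cKO and by the interaction moved with the processing. At 2 weeks 1 was called with no filter (*Cldn7*) and 1 with the length and GC trend removed (*Cldn8*). At 10 weeks 2 were called with a pseudocount of 1, 2 with the stricter filter and 2 with all 4 groups in 1 fit. The 1 member called there was no longer *Tjp1* in 3 settings. It was *Cldn5*, down-regulated, after median-of-ratios scaling or quantile normalization, and *Cldn4*, up-regulated, with the trend removed. With age in the wild type 0 were called after median-of-ratios scaling, 2 after quantile normalization (1 of them *Cldn5*, up-regulated) and 5 with the trend removed. By the interaction 2 were called with no filter, 0 after median-of-ratios scaling and 2 with the trend removed. After quantile normalization the interaction call passed from *Tjp1* to *Cldn4*. Over all genes 1951 calls at 2 weeks became 3300 with all 4 groups in 1 fit.

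Over fits that each lacked 1 mouse, the members called ranged from 0 to 1 at 2 weeks, 0 to 2 at 10 weeks, 1 to 3 with age in the wild type and 0 to 2 by the interaction. All genes called ranged from 859 to 3348, 745 to 2665 and 2205 to 3826 in the first 3 of these, from 300 to 700 with age in *Socs3* cKO and from 1994 to 5117 by the interaction. The log2(FC) ranged at 2 weeks from -0.01 to 0.16 for *Cldn12* and -0.02 to 0.21 for *Ocln*, and at 10 weeks from -0.68 to 0.27 for *Cldn3*. With age in *Socs3* cKO it ranged from -0.04 to 0.64 for *Cldn4*, -0.04 to 0.77 for *Cldn5*, -0.11 to 0.06 for *Cldn12*, -0.10 to 0.27 for *Ocln* and -0.01 to 0.28 for *Tjp1*, and by the interaction from -0.37 to 0.18 for *Cldn8* and -0.19 to 0.53 for *Cldn23*. *Cldn5* relative to endothelial genes at 2 weeks ranged from -0.08 to 0.42.

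Directions turned at 2 weeks for *Cldn1* (-0.07), *Cldn12* (-0.27) and *Ocln* (-0.45) with the trend removed, for *Cldn8* (0.06) and *Tjp1* (0.10) after quantile normalization and for *Tjp1* (0.02) after median-of-ratios scaling, and at 10 weeks for *Cldn3* (0.60) with the trend removed. With age, *Cldn23* turned in the wild type (0.11, quantile), and in *Socs3* cKO *Cldn12* (0.03, trend removed), *Ocln* (-0.05, median-of-ratios, and -0.10, quantile) and *Tjp1* (-0.04, quantile, and -0.01, trend removed). The interaction turned for *Cldn1* (-0.10) and *Cldn23* (-0.21) after median-of-ratios scaling, *Cldn12* (-0.11) and *Cldn23* (-0.49) after quantile normalization, and *Cldn8* with a pseudocount of 1 (0.00) or the trend removed (0.82). The cause was not tested.

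Replicate numbers are shared between the genotypes in the labels, but same-numbered mice did not deviate together (r of -0.04 to 0.14 at the earlier age, -0.21 to 0.07 at the later). The labels do not give litters, and these values cannot exclude a link between same-numbered mice. With the replicate block 751 genes were called at 2 weeks and 3 members at 10 weeks. Since the reads behind each FPKM are unknown, how depth limits the low members, *Cldn7* first, could not be given.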
